A study of Mus musculus with 8 samples.

Results

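Cyclins, mitotic kinases and spindle genes were followed through 8 mouse embryo libraries, as a named list of 48 symbols matched to the gene symbols of the deposited tables. Of these, 47 were listed among 23234 genes, and the remaining name, Emi1, is a synonym of Fbxo5, which is listed. Embryos were pooled at the 2-cell stage (30 h after fertilization, 10 embryos a pool) and at the blastocyst stage (96 h, 7 embryos a pool), with 2 libraries in each of 4 groups. Wild-type oocytes came from females homozygous for a floxed Tet3 allele (f/f), with no statement on Cre in the labels. Tet3-null oocytes came from females with 1 floxed and 1 null Tet3 allele and a Zp3-Cre transgene, whose promoter is active in growing oocytes. All females were superovulated, and all oocytes were fertilized in vitro by CAST/EiJ sperm, so every embryo also received a paternal Tet3 allele and the null state is that of the oocyte. Tet3 is the dioxygenase that converts 5-methylcytosine after fertilization. The genotype comparison asks what its absence from the oocyte does to embryonic transcripts.

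A cyclin binds and activates a cyclin-dependent kinase (CDK), and cyclin B with Cdk1 drives entry into mitosis. Wee kinases hold Cdk1 inactive, Cdc25 phosphatases release it, and the anaphase-promoting complex (APC/C), activated by Cdc20 and then by Fzr1 (Cdh1), destroys cyclin B and securin once the spindle checkpoint is satisfied. The fully grown oocyte stores such transcripts for meiosis and the first cleavages, including germ-cell forms such as Wee2 and Aurkc, and much of this store is degraded around the 2-cell stage as the embryonic genome becomes active.

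Values are FPKM, fragments scaled by gene length and by library total, so levels of different genes can be set side by side only roughly. The cDNA was amplified, and how reads shared between genes were assigned is not known. Differences and their standard errors (SE) are on the log2(FPKM + 1) scale, on which the change of a weakly expressed gene is understated. Of the 47 genes, 45 reached 1 FPKM in at least 2 libraries and were tested. Ccna1, the germ-line cyclin A, was listed at 0 to 0.0696 FPKM, and Ccnd2, a D-type cyclin, at 0.0434 to 1.29 FPKM. Ccnb3, Ccno, Wee2 and Mos passed through their 2-cell libraries alone, so a lower blastocyst value was built into their selection for testing. An adjusted p here is from limma with Benjamini-Hochberg adjustment over all 13549 genes tested, and a gene is called at 0.05. The spread of a gene was pooled over the 4 groups. Its SE and interval width for a genotype difference are therefore the same at both stages, and not specific to either. Whether both libraries of a group stem from different mothers or collection days is not in the labels, so the p-values here cover the spread of these samples alone, and that spread may be technical.

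The summed FPKM per library was 600495 to 634816 at the 2-cell stage and 924556 to 956335 in blastocysts, and read totals are unknown. The second Tet3-null 2-cell library stood apart: it lists 7101 genes at 0, where its 3 counterparts list 5549 to 6080, and Pearson's r of log2(FPKM + 1) across genes between the Tet3-null 2-cell libraries was 0.959, against 0.974 to 0.984 in the other groups. Tet3 was at 10.8 and 7.54 FPKM in wild-type and 3.28 and 4.41 FPKM in Tet3-null 2-cell embryos, without overlap and with an adjusted p of 0.0690. Oocyte markers (6 genes) summed to 1496 to 2348 FPKM at the 2-cell stage and 1.32 to 1.96 FPKM in blastocysts, and trophectoderm markers (5 genes) to 54.2 to 80.1 and 2883 to 4710 FPKM. Of 10 cumulus and granulosa cell markers, 8 stayed below 1 FPKM in all 8 libraries. The other 2 were Gja1, at 56.5 to 88.7 FPKM in 2-cell libraries and 574 to 678 FPKM in blastocysts, and Tnfaip6, at 14.3 to 29.5 and 0.343 to 0.613 FPKM.

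**Figure D1:**
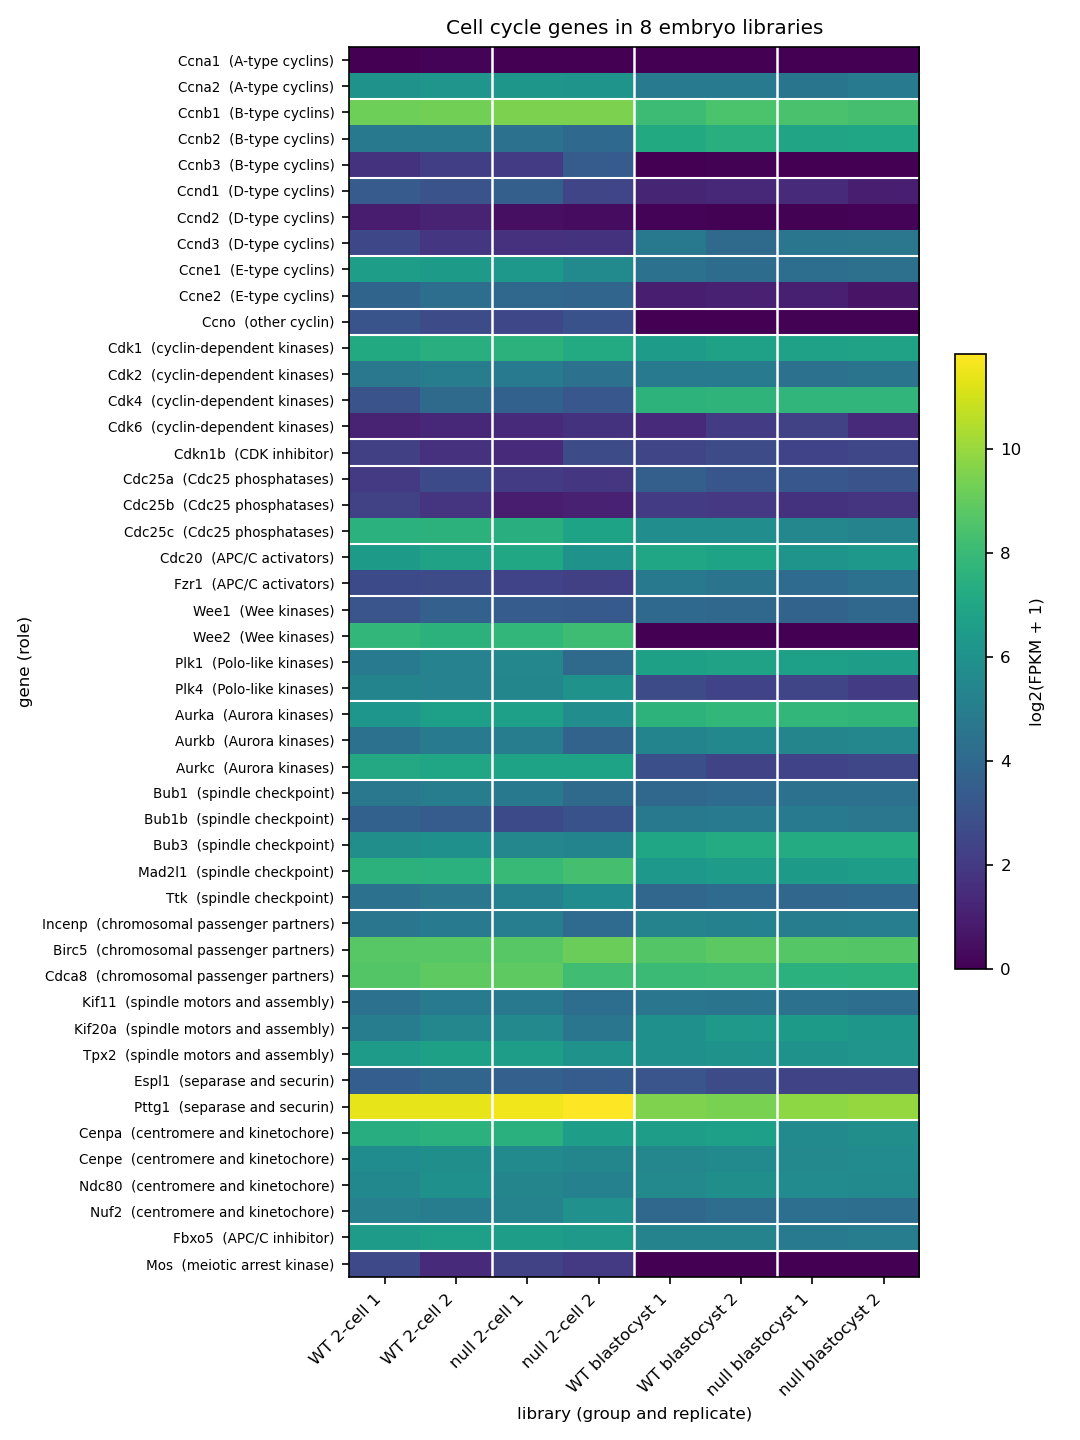
Heat map of log2(FPKM + 1) for the 47 genes (rows, by role) in the 8 libraries (columns, by group and replicate; WT is wild-type and null is Tet3-null, of the oocyte). Wee2, Ccno, Ccnb3 and Mos are at or near 0 in all 4 blastocyst libraries, while Cdk4 and Ccnb2 are higher there than in any 2-cell library.

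The stage of the embryo separated most of these genes. In wild-type embryos 34 of 45 were called between blastocyst and 2-cell, 11 higher and 23 lower in blastocysts, against 74.3% of all genes tested (35.8% called higher and 38.4% called lower). In embryos from Tet3-null oocytes 33 of 45 were called, 12 higher and 21 lower, against 74% of all genes (38.9% higher and 35.1% lower). The share called was thus near that of all genes in both genotypes. The median difference of the 45 genes was -0.55 in wild-type and -0.27 in Tet3-null, beside -0.08 and 0.09 over all genes tested. Between the genotypes, which use separate libraries, 10 genes were higher in blastocysts in both (22.2%, against 33.4% of all genes) and 21 were lower in both (46.7%, against 32.4%). None was called in opposite directions (0.118% of all genes), and 9 were called in neither (20%, against 17.7%). The falls counted here and across scalings include Ccnb3, Ccno, Wee2 and Mos, whose direction was built in by the filter. No gene of the list passed the filter through blastocyst libraries alone. Bulk pools do not tell fewer cells of a type from less RNA per cell, and FPKM gives a share of the transcripts rather than an amount per embryo. Rescaling every library to the same sum (TPM) lowered the all-genes stage median to -0.59 in wild-type and -0.37 in Tet3-null. Across the deposited scale and 3 other scalings, 7 wild-type rises and 21 wild-type falls stayed called, as did 8 rises and 21 falls of Tet3-null embryos. Over all genes 26.9% stayed called higher and 34.2% lower in wild-type, against 15.6% and 46.7% of the 45, and 31.1% and 34.3% in Tet3-null, against 17.8% and 46.7%.

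**Figure D2:**
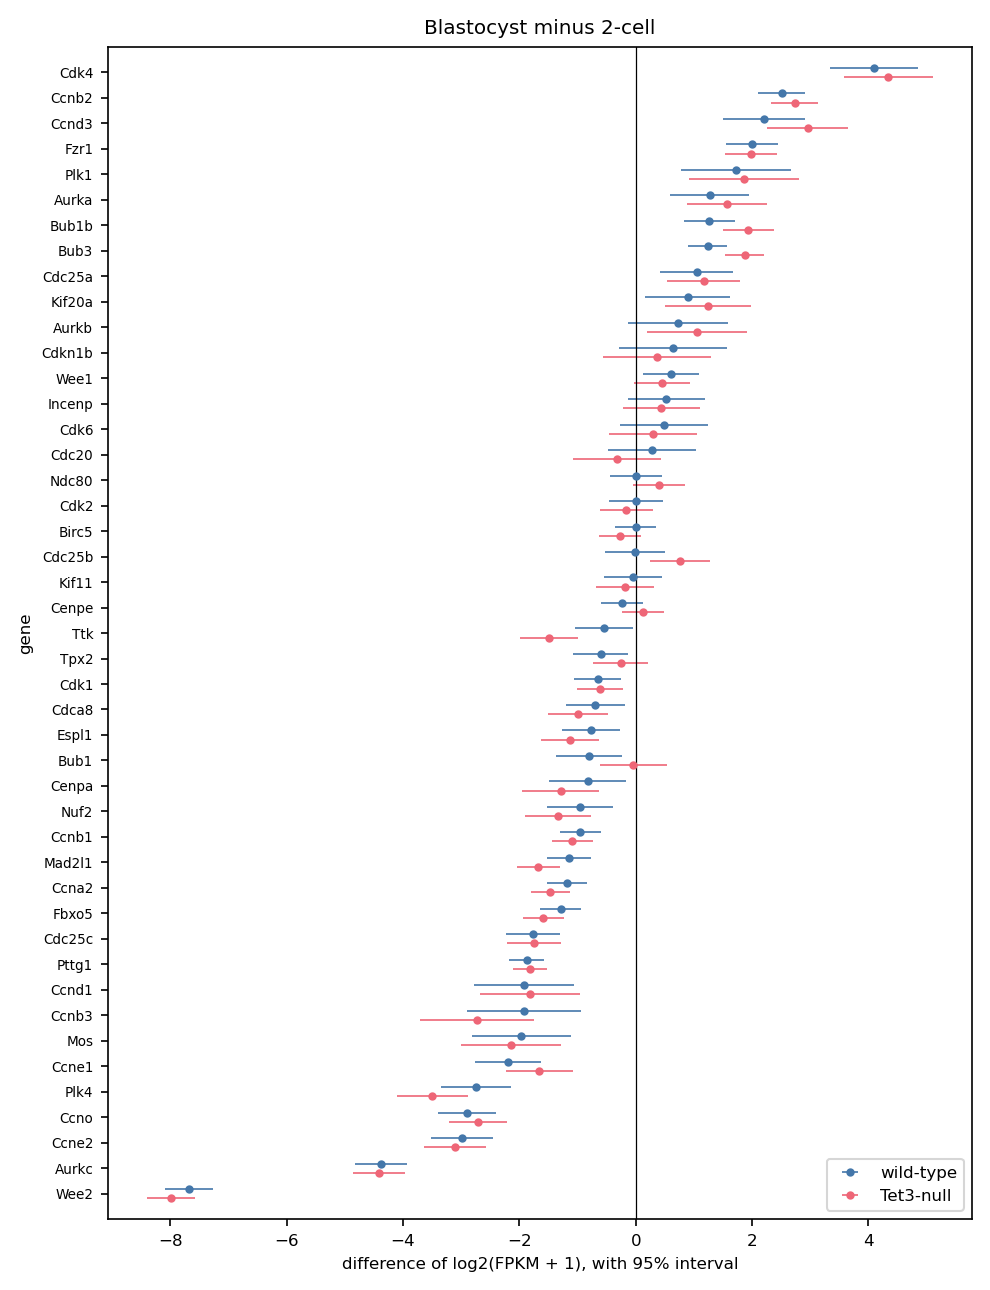
Blastocyst minus 2-cell difference of log2(FPKM + 1) for the 45 genes tested, with 95% intervals from limma, in wild-type (blue) and Tet3-null (red) embryos. Genes run from Cdk4 at 4.09 in wild-type to Wee2 at -7.68, and the genotypes' points lie close together for both ends of the list.

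Among the B-type cyclins the balance moved from Ccnb1 towards Ccnb2. Ccnb1, the main mitotic partner of Cdk1, was at 581 and 634 FPKM in wild-type and 708 and 707 FPKM in Tet3-null 2-cell embryos. Its blastocyst levels were 274 and 356 FPKM (wild-type) and 341 and 322 FPKM (Tet3-null). Ccnb2, a B-type cyclin found largely at the Golgi, was at 26.5 and 26.7 (wild-type) and 20.5 and 15.2 FPKM (Tet3-null) at the 2-cell stage, and at 145 and 168, and 119 and 127 FPKM in blastocysts. Every 2-cell library thus lay above every blastocyst library for Ccnb1 and below every one for Ccnb2. Ccnb1 fell by 0.96 (SE 0.15, adjusted p 0.000841) in wild-type and by 1.09 (adjusted p 0.000408) in Tet3-null. Ccnb2 rose by 2.51 (SE 0.17, adjusted p 1.55e-05) and 2.73 (adjusted p 9.70e-06). Ccnb2 took 2.08% to 4.35% of the B-type cyclin FPKM in the 2-cell libraries and 25.9% to 34.5% in blastocysts, where Ccnb1 was still the larger part. Both genes have a named pseudogene, whose reads could be assigned to them. Ccnb3, a cyclin linked to meiotic anaphase, was at 2.36 and 3.54, and 3.14 and 9.76 FPKM at the 2-cell stage. It was at most 0.0583 FPKM in blastocysts, with differences of -1.92 and -2.73, a direction that the filter built in.

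Ccna2, the A-type cyclin of S phase and mitosis, fell from 63.5 and 69.6, and 74.1 and 68.1 FPKM to 28.5 and 29.0, and 23.2 and 26.9 FPKM, by 1.18 (SE 0.14, adjusted p 0.000234) in wild-type and 1.47 (adjusted p 7.22e-05) in Tet3-null. It made up at least 99.9% of A-type cyclin FPKM in each library. The E-type cyclins, which activate Cdk2 at the start of S phase, both fell. Ccne1 was at 93.8 and 86.5, and 78.6 and 47.6 FPKM in 2-cell libraries and 21.0 and 17.0, and 18.2 and 19.3 FPKM in blastocysts, a fall by 2.19 (SE 0.24, adjusted p 0.000147) in wild-type. Ccne2 was at 13.1 and 18.1, and 14.8 and 13.6 FPKM, and then at 1.01 and 1.12, and 1.05 and 0.531 FPKM, a fall by 2.99 (SE 0.23, adjusted p 2.23e-05). Neither gene's stages overlapped in either genotype.

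The D-type cyclins, partners of Cdk4 and Cdk6 in G1, exchanged places. In the RefSeq gene table Ccnd1 overlaps LTO1, and Ccnd3 overlaps Bysl and has a named pseudogene, so their values are uncertain. Ccnd1 held 62.1% to 80.3% of D-type FPKM in 2-cell libraries and 3.82% to 9.18% in blastocysts. Ccnd3 went from 16.7% to 32.8% up to 90.5% to 95.9%, with 4.86 and 2.67, and 2.24 and 2.33 FPKM in 2-cell libraries and 26.2 and 15.8, and 24.2 and 24.7 FPKM in blastocysts. Ccnd3 rose by 2.203 (SE 0.30, adjusted p 0.000395) in wild-type and 2.96 (adjusted p 8.34e-05) in Tet3-null, and Ccnd1 fell by 1.92 and 1.81 (adjusted p 0.00227 and 0.00295). Ccno, a cyclin of multiciliated cells that is also found in oocytes, was at 7.30 and 5.73, and 4.82 and 6.96 FPKM at the 2-cell stage. Ccno was listed at 0 in both wild-type blastocyst libraries and at 0.0404 and 0.0416 FPKM in Tet3-null blastocysts. The differences of -2.90 and -2.71 had a direction that the filter built in.

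Cdk4 showed the largest rise of all 45 genes. It was at 7.18 and 15.8 FPKM in wild-type and 11.6 and 8.30 FPKM in Tet3-null 2-cell embryos, against 195 and 202, and 221 and 216 FPKM in blastocysts. The rise was 4.09 (SE 0.32, adjusted p 2.82e-05) in wild-type and 4.34 (adjusted p 1.94e-05) in Tet3-null, although Cdk4 overlaps Tspan31 in the RefSeq gene table and reads of the overlap cannot be told apart without strand. Cdk1, the mitotic kinase, fell by 0.66 and 0.61 (adjusted p 0.00944 and 0.0127), from 146 to 191 FPKM over the 2-cell libraries to 92.4 to 111 FPKM over blastocysts. Cdk1 thus went from 77.7% to 82.8% of the FPKM of the 4 CDKs to 29.1% to 31.7%, and Cdk4 from 3.999% to 7.198% up to 59.1% to 62.4%. Cdk2, Cdk6 and the CDK inhibitor Cdkn1b were called in neither genotype (log2 differences of -0.16 to 0.64), with signs that turned under TPM scaling for Cdk2 in wild-type and for Cdk6 and Cdkn1b in Tet3-null.

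Among the switches that act on Cdk1, the Wee pair changed in composition. Wee2, the oocyte form of the inhibitory kinase, was at 224 and 191 FPKM in wild-type and 226 and 283 FPKM in Tet3-null 2-cell embryos. In blastocysts Wee2 was at 0.0196 and 0.00865 FPKM in wild-type and listed at 0 in both Tet3-null libraries. The differences were -7.68 (SE 0.17) and -7.99, in a direction that the filter built in. Wee1, the somatic form, was at 7.70 and 11.5, and 9.996 and 9.20 FPKM, and then at 15.5 and 14.3, and 12.7 and 14.3 FPKM. The Wee1 difference of 0.61 in wild-type (adjusted p 0.0293) lost its call under TPM scaling, and that of 0.45 in Tet3-null was not called (adjusted p 0.0797) and turned to -0.08 under TPM scaling. Wee2 made up 94.3% to 96.9% of the pair at the 2-cell stage and at most 0.127% in blastocysts. The summed Wee1 and Wee2 level was 202 to 292 FPKM in 2-cell libraries and 12.7 to 15.5 FPKM in blastocysts, so that blastocyst Wee1 did not reach the 2-cell level of Wee2. Wee2 overlaps Dennd11 in the gene table.

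Cdc25c held most of the Cdc25 phosphatase FPKM at both stages, with 96.1% to 97.6% and then 79.0% to 83.5%. It was at 185 and 190, and 169 and 113 FPKM in 2-cell libraries and at 54.2 and 54.8, and 43.0 and 38.0 FPKM in blastocysts, a fall by 1.76 (SE 0.20, adjusted p 0.000152) in wild-type and 1.75 (adjusted p 0.000150) in Tet3-null. Cdc25a, which also acts at the start of S phase, was at 3.02 and 5.34, and 3.14 and 2.64 FPKM, and then at 11.1 and 7.97, and 8.19 and 7.25 FPKM. Its rise of 1.05 and 1.17 (adjusted p 0.00907 and 0.00543) lost its call under TPM scaling in both genotypes. Cdc25b, the form needed to resume oocyte meiosis, was at 3.90 and 2.43, and 0.937 and 1.12 FPKM at the 2-cell stage and 3.31 and 2.85, and 2.30 and 2.57 FPKM in blastocysts. It was called higher in Tet3-null blastocysts (0.76, adjusted p 0.0149, lost under TPM scaling) and not in wild-type (-0.01, adjusted p 0.978, positive under median-of-ratios and quantile scaling); the test of the difference between genotypes gave an adjusted p of 0.329.

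Of the APC/C activators, Cdc20 was at 85.2 and 110, and 131 and 63.3 FPKM in 2-cell libraries and 122 and 114, and 68.8 and 76.6 FPKM in blastocysts. It was called in neither genotype, with 0.28 in wild-type, which turned negative under quantile and TPM scaling, and -0.33 in Tet3-null. Fzr1 was at 5.20 and 5.56, and 4.21 and 3.68 FPKM, and then at 26.7 and 22.3, and 16.2 and 21.0 FPKM. Its rise was 1.99 (SE 0.19, adjusted p 6.84e-05) in wild-type and 1.98 (adjusted p 6.58e-05) in Tet3-null, and its share of the pair went from 3.11% to 5.75% up to 16.4% to 21.5%. Fbxo5 (Emi1), which inhibits the APC/C, was at 89.1 and 100.3, and 95.6 and 80.7 FPKM, and fell to 37.8 and 38.2, and 26.8 and 30.4 FPKM (differences of -1.29 and -1.59, adjusted p 0.000194 and 6.35e-05). Mos, the kinase that holds the egg at metaphase of meiosis II, was low already at the 2-cell stage, with 5.02 and 1.63, and 3.88 and 2.9996 FPKM. It was at most 0.0325 FPKM in blastocysts (differences of -1.97 and -2.14, a direction that the filter built in).

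Among the Aurora kinases the main transcript passed from Aurkc to Aurka. Aurkc, the germ-cell and early-embryo member of the chromosomal passenger complex, was at 138 and 122 FPKM in wild-type and 116 and 114 FPKM in Tet3-null 2-cell embryos, and at 6.39 and 4.35, and 4.13 and 4.77 FPKM in blastocysts. It fell by 4.38 (SE 0.19, adjusted p 2.29e-06) and 4.42 (adjusted p 1.95e-06). Aurka, the centrosomal and spindle-pole Aurora, was at 73.3 and 102, and 99.2 and 54.1 FPKM, and then at 195 and 225, and 226 and 212 FPKM. All blastocyst values of Aurka lay above all 2-cell values. The Aurka rise of 1.27 in wild-type (SE 0.29, adjusted p 0.00563) lost its call under TPM scaling, and that of 1.57 in Tet3-null (adjusted p 0.00199) kept it under the 3 scalings. Aurkb, the somatic passenger kinase, was at 21.1 and 29.4, and 30.1 and 12.7 FPKM and then at 39.7 and 44.2, and 41.0 and 43.1 FPKM. Its groups did not overlap, but it was not called in wild-type (0.73, adjusted p 0.106) and its call in Tet3-null (1.06, adjusted p 0.0314) was lost under quantile and TPM scaling. Aurkc took 47.3% to 63.1% of Aurora FPKM in 2-cell libraries and 1.52% to 2.65% in blastocysts, and Aurka 29.9% to 40.4% and then 80.9% to 83.4%. The summed Aurora FPKM was 181 to 253 at the 2-cell stage and 241 to 274 in blastocysts, so the ranges of the 3 genes together overlapped. Aurka overlaps Cstf1 in the gene table.

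Of the partners of Aurkc in the passenger complex, 1 of 3 was called. Birc5 (survivin) was among the most abundant of the genes at both stages, with 424 to 564 and 402 to 449 FPKM, and was called in neither genotype. Incenp was at 23.7 and 26.8, and 32.5 and 16.8 FPKM in 2-cell libraries and 38.2 and 35.4, and 31.6 and 32.7 FPKM in blastocysts, higher without overlap in wild-type but called in neither genotype (log2 differences of 0.53 and 0.44, negative under TPM scaling). Cdca8 (borealin) fell by 0.69 in wild-type and 0.99 in Tet3-null (adjusted p 0.0211 and 0.00430). Of the Polo-like kinases, Plk1, which acts at centrosomes, kinetochores and the midbody, was at 27.7 and 36.7, and 43.1 and 16.2 FPKM at the 2-cell stage and 103 and 112, and 101 and 96.3 FPKM in blastocysts. Plk4, which starts centriole duplication, was at 39.6 and 37.1, and 41.9 and 64.8 FPKM, and then at 5.51 and 4.25, and 4.45 and 3.08 FPKM. Plk1 rose by 1.72 (SE 0.40, adjusted p 0.00585) and 1.86 (adjusted p 0.00398), and Plk4 fell by 2.75 (SE 0.26, adjusted p 6.13e-05) and 3.49 (adjusted p 1.80e-05). The lowest and the highest 2-cell Plk1 values were both in Tet3-null embryos.

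**Figure D3:**
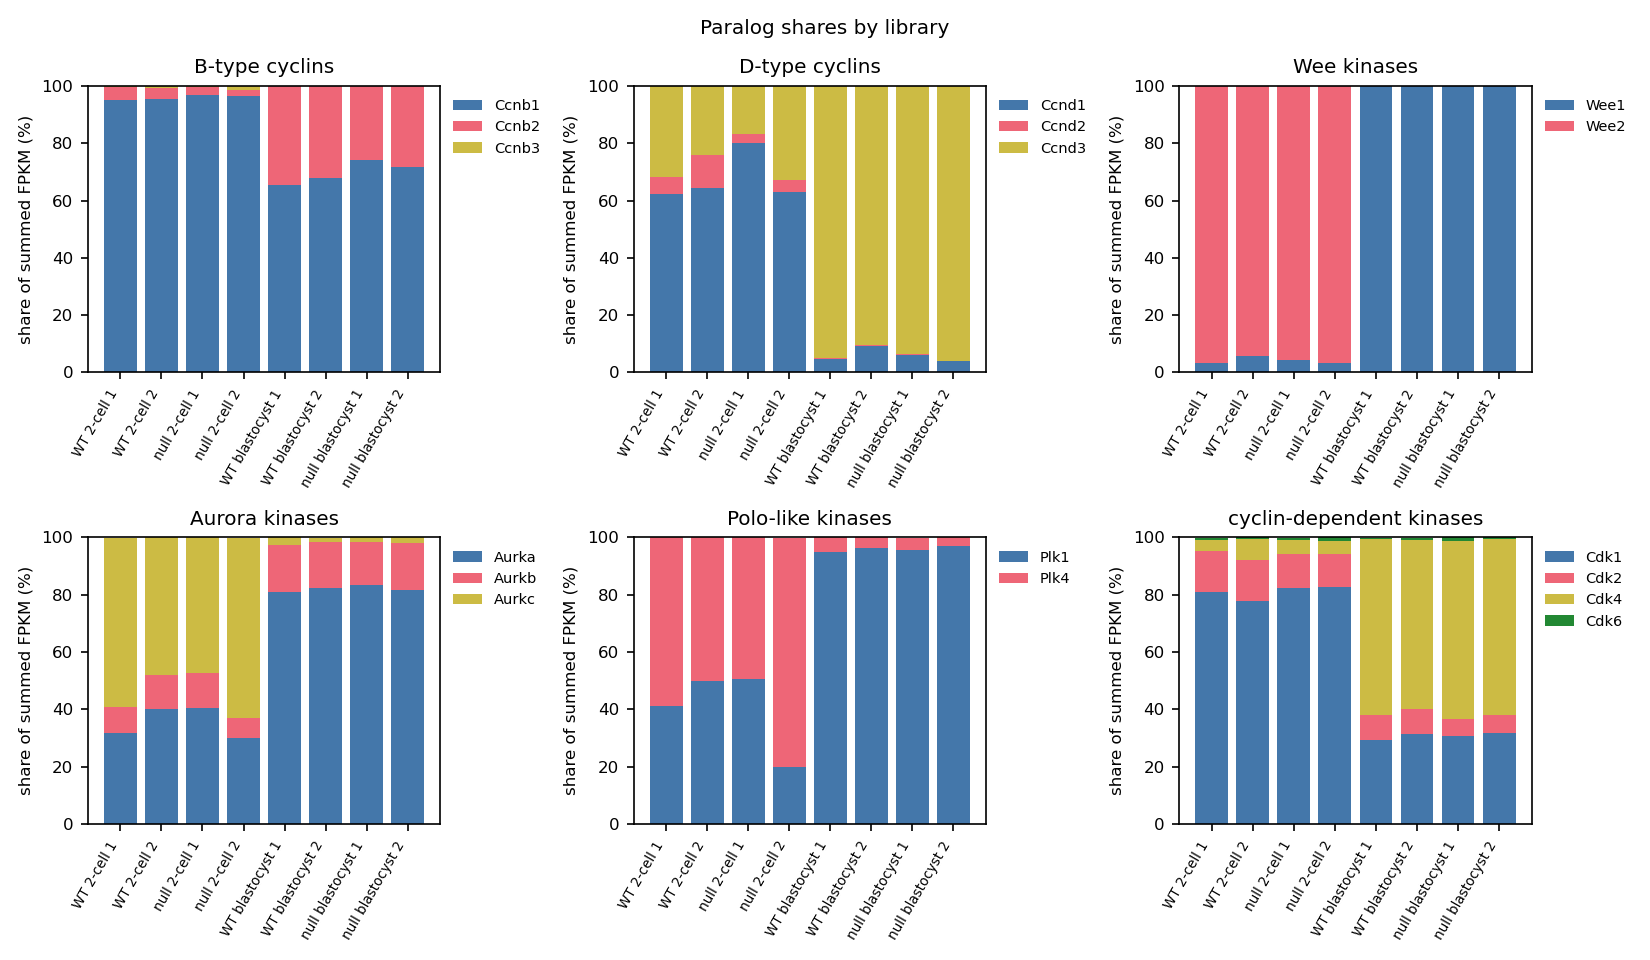
Share of each gene in the summed FPKM of its family, in percent (y axis), for 6 families in the 8 libraries (x axis; WT is wild-type, null is Tet3-null). Among the 2-cell bars Plk1 ranges from 20.0% to 50.7%, and Plk4 has the rest of that pair. Wee2 holds 94.3% to 96.9% of the Wee kinases in 2-cell libraries and at most 0.127% in blastocysts, and Aurkc goes from 47.3% to 63.1% down to 1.52% to 2.65%.

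The spindle checkpoint split by gene. Bub1b (BubR1) and Bub3, which bind each other in the checkpoint complex, rose by 1.26 and 1.23, respectively, in wild-type embryos and by 1.93 and 1.87 in Tet3-null ones (adjusted p of 2.13e-05 to 0.000597). Mad2l1, which sequesters Cdc20, fell by 1.15 and 1.67 (adjusted p 0.000454 and 6.42e-05), and Ttk (Mps1), which starts the signal, fell by 0.55 and 1.49 (adjusted p 0.0475 and 0.000512). The Ttk call in wild-type was lost under median-of-ratios and quantile scaling. Bub1 fell by 0.80 in wild-type (adjusted p 0.0195) and was not called in Tet3-null (-0.04, adjusted p 0.887).

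Pttg1, or securin, the inhibitor of separase, had the highest level of the 47 genes at both stages, with 2629 to 3588 FPKM in 2-cell libraries and 700.2 to 969 FPKM in blastocysts, a fall by 1.88 and 1.82 (adjusted p 1.35e-05 and 1.41e-05). Espl1 (separase) was at 10.0005 to 13.7 FPKM and then 4.33 to 7.72 FPKM, and fell by 0.77 and 1.13 (adjusted p 0.0126 and 0.00203). At the centromere and kinetochore, Cenpa, the centromeric histone H3, fell by 0.83 and 1.29 (adjusted p 0.0290 and 0.00412) and Nuf2 by 0.95 and 1.34 (adjusted p 0.00865 and 0.00166). Ndc80, the partner of Nuf2 in the same complex, was called in neither genotype (0.01 and 0.40, with the sign in wild-type turning negative under quantile and TPM scaling and that in Tet3-null under TPM scaling). Nor was the motor Cenpe, at -0.24 and 0.12, the latter negative under quantile and TPM scaling. Of the spindle motors and assembly factors, Kif20a, a motor of the central spindle, rose by 0.89 and 1.24 (adjusted p 0.0334 and 0.00838), calls that were lost under TPM scaling in both genotypes and under quantile scaling in wild-type. Tpx2, the activator of Aurka, fell by 0.60 in wild-type (adjusted p 0.0266, lost under median-of-ratios scaling) and was not called in Tet3-null (-0.26). Kif11, the motor that pushes spindle poles apart, was called in neither (-0.04, positive under median-of-ratios scaling, and -0.19).

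Promoter sequence was a feature that the list did not use. RefSeq promoter windows (GRCm38.p6, 250 bases before to 50 after the start) were found for 36 of the 47 genes, in 38 windows. They were searched on both strands for letters of the cell cycle homology region (CHR, TTTGAA or TTCGAA, the latter being its own reverse complement) and for CCAAT, which are known to occur together in promoters of mitotic genes. A CHR and a CCAAT match can share at most 1 letter. The CHR letters occurred in 17 of 38 windows (44.7%), against 19.2% of all 32851 windows, CCAAT in 26 (68.4%, against 37.4%), and both in 42.1% (against 7.52%). Of the 16 genes with CHR letters, all tested, 5 were higher, 7 lower and 4 not called in wild-type blastocysts. Of the 20 without, 19 were tested, with 4 higher, 10 lower and 5 not called. Such a match is a description of letters only. The 200 bases before the start are shown for 4 mitotic genes and for the 2 oocyte paralogs with the largest falls, 5′ to 3′ on the gene's strand, with CHR and CCAAT letters of either strand in capitals.
Ccnb1, chr13:100786487-100786686, minus strand: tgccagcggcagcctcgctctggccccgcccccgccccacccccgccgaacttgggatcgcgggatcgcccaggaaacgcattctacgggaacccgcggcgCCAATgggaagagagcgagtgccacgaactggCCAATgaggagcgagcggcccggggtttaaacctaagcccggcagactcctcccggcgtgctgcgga
Ccnb2, chr9:70421555-70421754, minus strand: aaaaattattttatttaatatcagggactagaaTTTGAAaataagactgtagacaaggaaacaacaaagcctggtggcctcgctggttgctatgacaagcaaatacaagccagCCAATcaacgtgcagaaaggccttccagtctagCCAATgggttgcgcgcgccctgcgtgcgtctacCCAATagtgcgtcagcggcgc
Cdk1, chr10:69352913-69353112, minus strand: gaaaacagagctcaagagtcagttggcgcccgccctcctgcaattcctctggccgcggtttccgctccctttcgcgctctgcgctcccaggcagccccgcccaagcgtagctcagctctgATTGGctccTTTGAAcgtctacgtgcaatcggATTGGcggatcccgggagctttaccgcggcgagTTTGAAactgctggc
Cdc20, chr4:118437344-118437543, minus strand: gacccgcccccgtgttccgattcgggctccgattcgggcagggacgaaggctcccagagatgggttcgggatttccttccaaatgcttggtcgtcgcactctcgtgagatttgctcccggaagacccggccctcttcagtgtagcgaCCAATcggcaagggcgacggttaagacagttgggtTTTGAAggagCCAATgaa
Aurkc, chr7:6995185-6995384, plus strand: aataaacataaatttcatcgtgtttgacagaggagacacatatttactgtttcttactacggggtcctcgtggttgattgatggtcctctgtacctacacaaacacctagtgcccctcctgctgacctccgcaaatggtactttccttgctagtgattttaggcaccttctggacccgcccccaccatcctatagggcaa
Wee2, chr6:40442663-40442862, plus strand: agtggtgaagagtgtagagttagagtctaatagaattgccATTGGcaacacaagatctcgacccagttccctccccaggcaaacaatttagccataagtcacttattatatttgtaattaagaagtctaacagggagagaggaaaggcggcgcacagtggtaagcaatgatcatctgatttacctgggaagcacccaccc
The mitotic genes Ccnb2, Cdk1 and Cdc20 hold both sets of letters in these stretches, while Ccnb1 holds CCAAT alone. In Aurkc neither set occurs in the stretch shown, and in Wee2 a single CCAAT match does. The full window, which reaches past the start, holds a CCAAT match from base 25 in Aurkc and a further match from base -2 in Wee2. In Plk1, Aurka, Cdca8 and Cenpa the CHR letters lie after the start only, outside such a stretch. Over the full windows, 25 genes had CCAAT letters. Of these 24 were tested, with 8 higher, 10 lower and 6 not called in wild-type blastocysts. The 11 genes without were all tested, with 1 higher, 7 lower and 3 not called.

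The genotype of the oocyte moved no gene of the list past the threshold at the 2-cell stage. With limma, 0 of 45 were called, against 2.72% of all genes tested. At an unadjusted p of 0.05 there were 7 of 45 (3 higher and 4 lower in Tet3-null), against 23.7% of all genes. With the 2-cell libraries fitted alone, 5 of 45 (11.1%) had an unadjusted p under 0.05, against 12.3% of all genes. The groups did not overlap for 9 genes that were higher and 11 that were lower in Tet3-null, against 12.6% and 34.9% of all genes. The median difference was -0.14, beside -0.17 over all genes. Cdc25b came nearest to the threshold: it was at 3.90 and 2.43 FPKM in wild-type and 0.937 and 1.12 FPKM in Tet3-null, a difference of -1.02 (SE 0.22, 95% interval -1.53 to -0.50, adjusted p 0.0576). Under TPM scaling alone of the 3 scalings it was called, with an adjusted p of 0.0480.

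The spindle checkpoint held 3 of the 5 largest differences between groups that did not overlap. Ttk was at 21.1 and 24.4 FPKM in wild-type and 35.6 and 52.1 FPKM in Tet3-null 2-cell embryos (0.90, SE 0.21, adjusted p 0.0699). Mad2l1 was at 192 and 183 FPKM, and 258 and 322 FPKM (0.62, SE 0.16, adjusted p 0.0812), and Bub1b at 11.8 and 9.66 FPKM, and 5.26 and 6.90 FPKM (-0.73, SE 0.18, adjusted p 0.0788). Both Tet3-null libraries were thus above both wild-type libraries for Ttk and Mad2l1 and below both for Bub1b, without a call. The remaining gene of the 5, Nuf2, was at 34.3 and 30.3 FPKM, and 37.6 and 61.5 FPKM (0.56, SE 0.24, adjusted p 0.211). Pttg1 was higher in both Tet3-null libraries (0.31, adjusted p 0.197), a sign that turned under quantile normalization, and Ccnb2 and Bub3 were lower in both (-0.56 and -0.50, adjusted p 0.117 and 0.0994). The germ-cell forms Wee2 (0.29, adjusted p 0.344), Aurkc (-0.17, adjusted p 0.628, positive under median-of-ratios scaling) and Mos (0.15, adjusted p 0.839) were not called. A p above the threshold does not show that these levels were alike.

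The 2-cell counts of the 45 genes turned on which Tet3-null library was used. Without its replicate 1, so that replicate 2 alone stood for the group and was assumed to vary like the others, 17 of the 45 genes (37.8%) were called, 6 higher and 11 lower, against 25.5% of all genes, and the median difference was -0.40. Ttk, Mad2l1, Nuf2, Ccnb3, Birc5 and Pttg1 were the higher ones, and Ccnb2, Ccne1, Cdc25b, Cdc25c, Plk1, Aurkb, Bub1, Bub3, Incenp, Cdca8 and Cenpa the lower ones. Without replicate 2, 0 were called, against 2.32% of all genes, and the median difference turned to 0.08. Leaving out a wild-type 2-cell library gave -0.28 for the first and -0.05 for the second. Over all genes the count called also fell when any library other than Tet3-null 2-cell replicate 1 was left out. That fall was far steeper without a wild-type 2-cell or any blastocyst library than without Tet3-null 2-cell replicate 2.

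**Figure D4:**
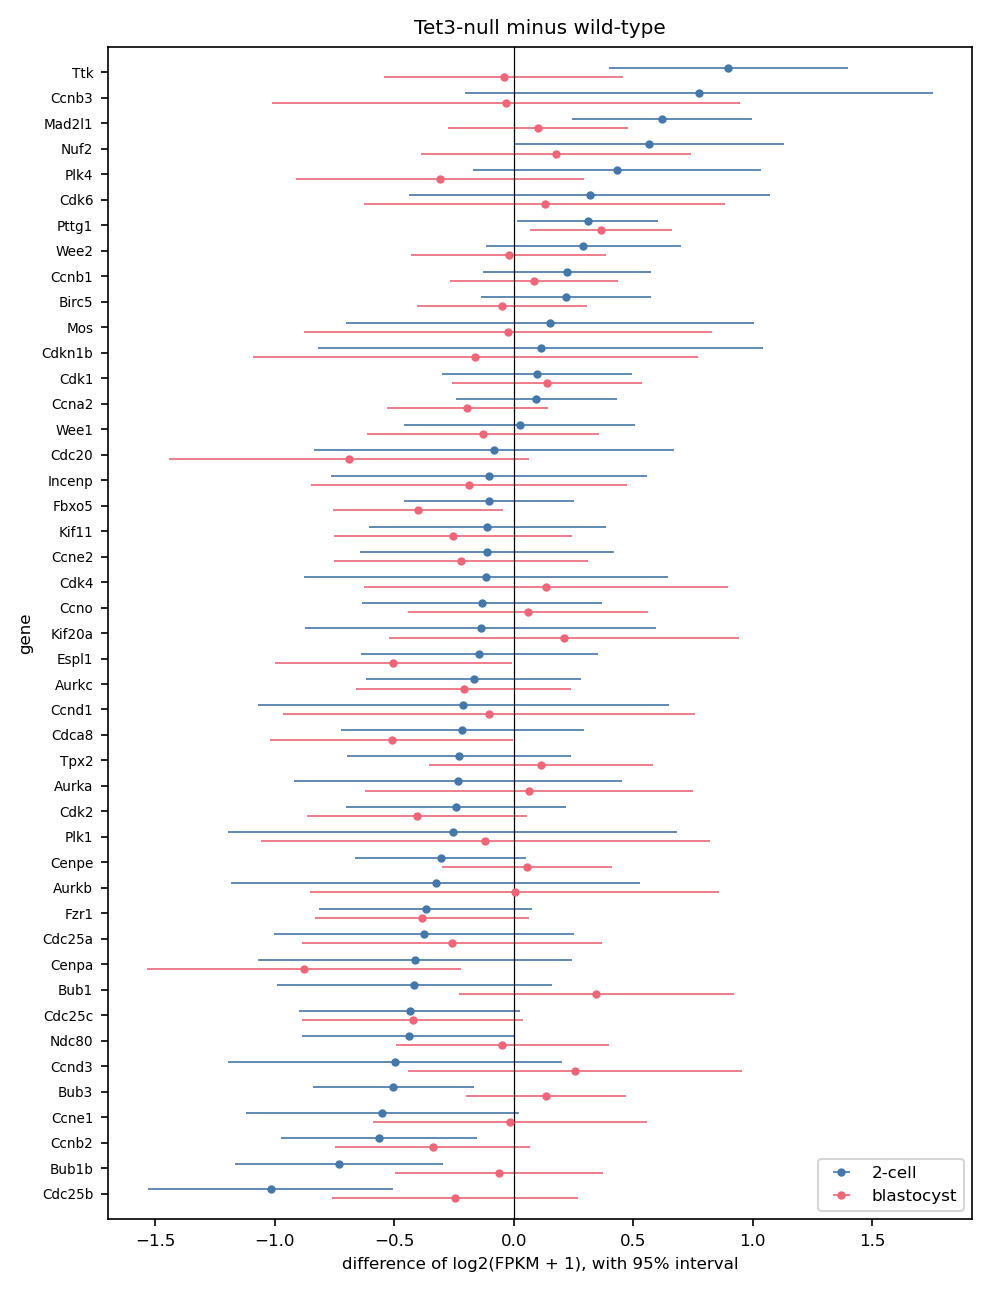
Tet3-null minus wild-type difference of log2(FPKM + 1) for the 45 genes tested, with 95% intervals from limma, at the 2-cell stage (blue) and in blastocysts (red). At the 2-cell stage the points run from -1.02 (Cdc25b) to 0.90 (Ttk), and none of the differences at either stage was called after adjustment over all genes. The intervals use a spread per gene pooled over the 4 groups, and so are equally wide at both stages.

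That library difference was visible gene by gene. The median absolute difference between the 2 libraries of a group was 0.40 over the 45 genes in Tet3-null 2-cell embryos, 0.23 in wild-type 2-cell embryos, 0.16 in wild-type and 0.11 in Tet3-null blastocysts. Over all genes tested it was 0.36, 0.23, 0.15 and 0.14, so the wide spread was not confined to the list. In Tet3-null 2-cell embryos 13 of the 45 genes were lower in replicate 2 by at least 0.5 (28.9%, against 21.1% of all genes) and 5 were higher by as much (11.1%, against 16%).

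The gaps of over 1 ran in both directions, with 4 genes lower and 2 higher in the second library. Plk1 differed by -1.36 (43.1 and 16.2 FPKM), Aurkb by -1.18 (30.1 and 12.7 FPKM), Ccnd1 by -1.10 (10.7 and 4.46 FPKM) and Cdc20 by -1.04 (131 and 63.3 FPKM). The others were Incenp, Cenpa, Kif20a, Aurka, Ccne1, Bub1, Cdca8, Cdc25c and Tpx2. The 5 higher ones were Ccnb3, which had the widest gap (1.38, 3.14 and 9.76 FPKM), Cdkn1b (1.23), Nuf2, Plk4 and Ttk. In wild-type 2-cell embryos replicate 2 minus replicate 1 had the opposite sign for most genes: 27 of 45 (60%) were higher there and lower in Tet3-null, against 30.5% of all genes and 43.6% of 133 other cell cycle genes, and 10 (22.2%) the reverse, against 26.4% and 18.8%. Across these 45 genes the correlation of both differences was -0.32, given as a description only, since genes share their libraries. It was -0.37 over the other cell cycle genes and -0.08 over all genes. Replicate numbers are not taken to pair libraries across genotypes. Exchanging the numbers within either genotype would turn these signs, so the sign itself carries no meaning. The oocyte marker sum was also highest in the second Tet3-null 2-cell library (2348 FPKM, against 1496 to 1760 in the other 3). Most of it was Oosp1 (1992 FPKM). Bmp15 (173 against 77.4 to 148 FPKM), Zar1 (20.1 against 6.61 to 12.3 FPKM) and Gdf9 (84.7 against 48.0 to 84.0 FPKM) were also highest in that library. Zp3 was lowest there (47.0 against 68.1 to 85.4 FPKM) and Nlrp5 was within the range of the others. Highest there too was the sum of 6 genes of the 2-cell stage (1926 against 1041 to 1394 FPKM). Their part in the spread was not tested.

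**Figure D5:**
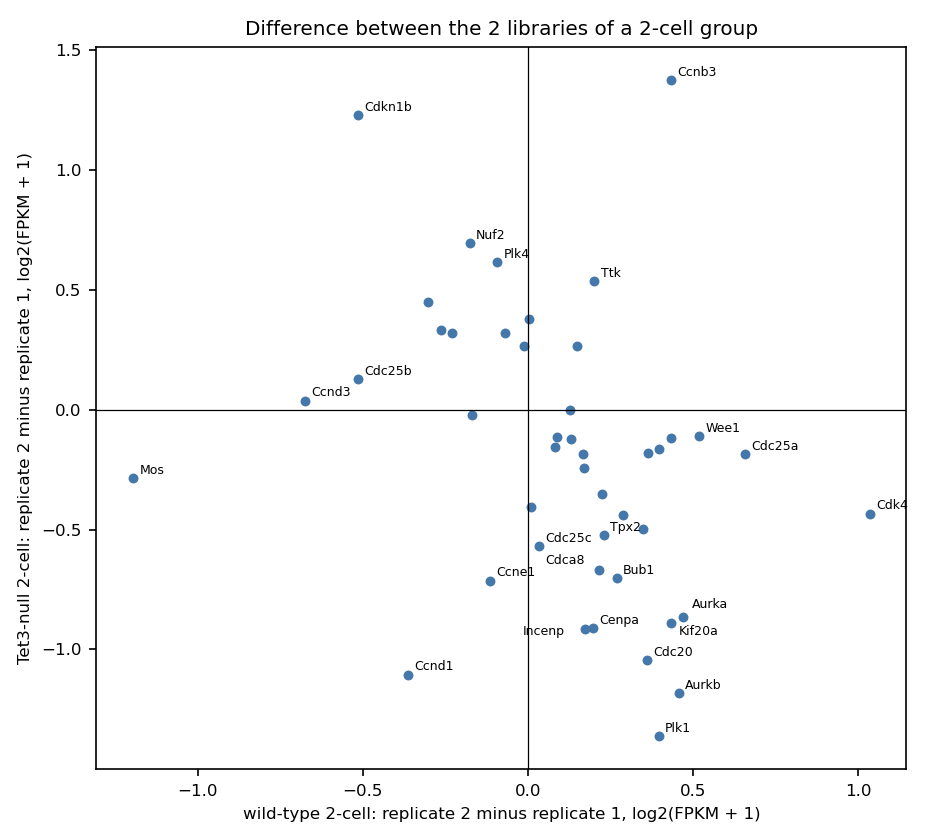
Replicate 2 minus replicate 1 difference of log2(FPKM + 1) for the 45 genes, in wild-type (x axis) and Tet3-null (y axis) 2-cell embryos, with names for genes that differ by at least 0.5 in either. Points spread more widely along the y axis, and 27 of 45 lie to the right of 0 on the x axis and below 0 on the y axis. Replicate numbers are not taken to pair libraries across genotypes, so this quadrant depends on the numbering alone.

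In blastocysts the oocyte genotype again moved no gene of the list past the threshold. With limma 0 of 45 genes were called, against 0.0664% of all genes tested, and 5 had an unadjusted p under 0.05, against 5.46%. With the blastocyst libraries fitted alone, 10 of 45 (22.2%) had an unadjusted p under 0.05, against 13.4% of all genes, and 0 were called. The groups did not overlap for 6 genes that were higher and 15 that were lower in Tet3-null, against 19% and 25.3% of all genes, and the median was -0.05, beside -0.02. Cenpa was at 96.2 and 99.8 FPKM in wild-type and 49.4 and 56.7 FPKM in Tet3-null (-0.88, SE 0.28, 95% interval -1.53 to -0.22, adjusted p 0.732). This SE includes the 2-cell libraries. For Cenpa, replicate 2 minus replicate 1 was -0.91 in Tet3-null and 0.20 in wild-type 2-cell embryos. In blastocysts it was 0.05 in wild-type and 0.19 in Tet3-null. Cdc20 was at 122 and 114 FPKM, and 68.8 and 76.6 FPKM (-0.69, SE 0.32, adjusted p 0.979). Both Cenpa and Cdc20 had wild-type values well above the Tet3-null ones in blastocysts, while at the 2-cell stage their genotype groups overlapped. Compared between the stages with limma, the genotype difference was called for neither (Cenpa -0.46, adjusted p 0.622, and Cdc20 -0.61, adjusted p 0.574).

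The other 3 of the 5 largest differences without overlap were smaller. Cdca8 was at 263 and 268 FPKM, and 183 and 190 FPKM (-0.51, adjusted p 0.913). Espl1 was at 7.72 and 5.62 FPKM, and 4.38 and 4.33 FPKM (-0.50, adjusted p 0.913), and Cdc25c at 54.2 and 54.8 FPKM, and 43.0 and 38.0 FPKM (-0.42, adjusted p 0.983). The trophectoderm marker sum was lower in Tet3-null blastocysts too, at 3197 and 2883 FPKM against 4710 and 4397 FPKM. Krt8, Krt18 and Elf3 were lower without overlap, while Cdx2 (5.67 to 9.21 FPKM) and Tfap2c overlapped between genotypes. The part of these markers in the differences was not tested. Pttg1 was the only gene with an unadjusted p under 0.05 that was higher in Tet3-null blastocysts (737 and 700.2 FPKM, and 883 and 969 FPKM, 0.36, adjusted p 0.845).

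The genotype difference was itself compared between the stages, as blastocyst minus 2-cell. With limma 0 of 45 genes were called, against 0.14% of all genes, and 4 had an unadjusted p under 0.05, against 14.4%. These were Cdc25b (0.77), Bub1b (0.67), Bub3 (0.64) and Ttk (-0.94), with adjusted p of 0.246 to 0.329. Without the first Tet3-null 2-cell library 4 of 45 genes (8.89%) were called, namely Ccnb3, Ccne1, Bub1 and Ttk, against 12.6% of all genes.

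A wider list of 133 other cell cycle genes, all found and all tested, was set beside these genes. At the 2-cell stage 1 was called higher and 3 lower in Tet3-null (3.01% in all, against 0.613% called higher and 2.1% called lower of all genes). Cks2, a small Cdk-binding subunit, was at 4639 and 4709 FPKM in wild-type and 7073 and 7689 FPKM in Tet3-null (0.66, adjusted p 0.0429, lost under quantile normalization). Cenpm, a centromere protein, was at 31.5 and 33.3 FPKM, and 15.003 and 12.2 FPKM (-1.20, adjusted p 0.0251). Cenpm alone of the 4 kept its call under the 3 scalings, narrowly so under median-of-ratios scaling (adjusted p 0.04998). Smc2, a condensin subunit, was at 9.25 and 7.44 FPKM, and 3.05 and 3.59 FPKM (-1.11, adjusted p 0.0351). Cdkn1c, an imprinted CDK inhibitor, was at 29.7 and 27.0 FPKM, and 12.0 and 6.64 FPKM (-1.56, adjusted p 0.0390). Both calls were lost under median-of-ratios and quantile scaling. Cks2 and Cdkn1c also lost theirs with a pseudocount of 0.1 (adjusted p 0.0527 and 0.0531) and with no filter (adjusted p 0.0917 and 0.0646). With no trend Cks2 was not called either (adjusted p 0.0752). All 4 calls were lost when the 2-cell libraries were fitted alone (adjusted p 0.376 to 0.402), and also when any 1 library other than a Tet3-null 2-cell library was left out (adjusted p 0.0889 to 0.138). The Cks2 call was lost as well without Tet3-null 2-cell replicate 2 (adjusted p 0.0680). In blastocysts, with limma, 0 of the 133 were called between genotypes, against 0.0664% of all genes. An unadjusted p under 0.05 was found for 3 of the 133, against 5.46% of all genes.

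Between the stages 43 of the 133 were called higher and 56 lower in wild-type blastocysts, and 45 and 47 in Tet3-null. In all, 74.4% were called in wild-type and 69.2% in Tet3-null, near the 74.3% and 74% of all genes tested. Btrc, a substrate adaptor of the SCF ubiquitin ligase, rose most in wild-type, from 2.80 and 3.31 to 65.7 and 75.6 FPKM (4.14, adjusted p 2.30e-06). Ncaph2 (3.33), Mad1l1 (2.95) and Anapc13 (2.93) followed, a condensin II subunit, a checkpoint protein that recruits Mad2 and an APC/C subunit. E2f5, a repressor E2F, fell most, from 117 and 97.3 to 1.10 and 1.54 FPKM (-5.55, adjusted p 5.76e-06), followed by Rb1 (-4.003), Cul1 (-3.34) and Cdk7 (-3.22), which encode the retinoblastoma protein, the scaffold of the SCF ligase and the CDK-activating kinase. The adaptor Btrc and the scaffold Cul1 of 1 ligase thus moved in opposite directions.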

How the data were processed

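Per the labels' protocols, embryos were lysed directly, cDNA was made and amplified with a SMARTer low-input kit, and the library kit keeps no strand information. The submitters' processing notes name TopHat2 2.0.10, Bowtie2 2.1.0, Cufflinks 2.2.0 and mm9 as tools and build, and the authors deposited FPKM per gene. Which annotation was used, and how reads shared between genes were assigned, is not given in the sources used here. In the RefSeq gene table, of another build (GRCm38.p6), 10 of the 47 genes overlap another coding gene. They are Ccna2, Ccnd1, Ccnd3, Ccne2, Cdk2, Cdk4, Cdc20, Wee2, Aurka and Kif20a. A named pseudogene exists for 3, Ccnb1, Ccnb2 and Ccnd3. The values of all these genes are uncertain.

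The 13549 genes that reached 1 FPKM in 2 or more libraries were fitted as log2(FPKM + 1) with 4 group means over all 8 libraries in limma 3.58.1 (R 4.3.3), two-sided, moderated with a trend on intensity (residual degrees of freedom 4, prior 3.07). The script was tested on simulated data with the same spread in every group and known changes larger than any genotype difference of the list. That test does not show how well smaller changes are found, or how unequal spread acts. No exact permutation test was run, since with 2 libraries a group it has no way to reach 0.05. The members and lists were chosen with earlier results of these data known, so no test over the list is given. Values in every library are given for the 5 largest non-overlapping genotype differences at each stage, the 6 largest rises and falls between stages in wild-type, and oocyte or somatic paralogs, and in the wider list for genotype calls. Alternatives were another pseudocount, other filters, no trend, 3 other scalings, a replicate block, the libraries of a stage alone, and each library left out in turn. Depth is unknown, so no counting interval is given.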

Additional observations from a re-analysis of the deposited data

How the results depend on the processing

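Of the 45 genes, Cdc25b alone was called between genotypes at the 2-cell stage under TPM scaling (1 gene). Leaving out 1 library in turn gave 0 to 17 called genes there and 0 to 4 for the difference between stages, the highest of each without Tet3-null 2-cell replicate 1. The blastocyst genotype median went from -0.05 to -0.14 with a pseudocount of 0.1 and lay between -0.11 and -0.0280 with 1 library left out, and the median of the difference between stages was -0.27 under median-of-ratios scaling. The stage median in wild-type was -1.14 under TPM and -0.40 under median-of-ratios scaling and -0.65 to -0.45 with 1 library left out. In Tet3-null it was -0.85 under TPM and -0.69 under quantile scaling, and -0.52 (without Tet3-null 2-cell replicate 2) to -0.25 with 1 library left out. The stage counts were 24 to 37 (wild-type) and 29 to 35 (Tet3-null) called genes with 1 library left out. Directions turned between stages for Cdc20 in wild-type (-0.32 under TPM, -0.0588 under quantile) and in Tet3-null (0.19 without Tet3-null 2-cell replicate 1), for Cdc25b in wild-type (0.11 under median-of-ratios, 0.12 under quantile, 0.25 without wild-type 2-cell replicate 1, 0.07 without wild-type blastocyst replicate 2) and for Wee1 in Tet3-null (-0.0845 under TPM). The cause of these changes was not tested.

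Same-numbered libraries of the genotypes did not deviate together (correlations of -0.08 at the 2-cell and 0.02 at the blastocyst stage), so the numbers are not taken to pair samples. With a replicate block within stage, 0 genes were called between genotypes at either stage and 28 and 32 between stages in wild-type and Tet3-null. Under the block Wee1 in wild-type (adjusted p 0.0674) and Aurkb in Tet3-null (adjusted p 0.0670) lost their calls, as did Cks2, Smc2, Cenpm and Cdkn1c (adjusted p 0.135 to 0.142).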
